A study of Oryza sativa and Triticum aestivum and Oryza sativa Japonica Group with 26 samples.

Results

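The 10 rice genes described here control how a young panicle branches and how many grains it can set. They are LAX1, MOC1, APO1, RFL, FZP, TAW1, OsSPL14, LOG, OsCKX2 and DEP1, taken as a given list of gene IDs by their known roles. No threshold was set on their values, but the list was chosen with earlier results of these data known. All 10 were found among the 55986 gene IDs of the RNA count table. The table came from 1 RNA library of young panicles of JZ1560, a japonica rice cultivar grown in an open field under natural conditions, with no genetic change or treatment named in the labels. The labels give no size or developmental stage of the panicles. The series also holds ChIP and genome libraries of rice and wheat, 26 samples in all, which carry no RNA values for these genes. With 1 RNA library there is no replicate, so no test was run. Each interval below covers counting error only and takes reads as independent. Intervals of counts are exact Poisson 95% intervals.

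A rice panicle is built by meristems that first make branches and then turn into spikelets, the units that bear the grains. Genes that start axillary meristems set how many branches can form, and genes that delay or hasten the turn to spikelet identity set how long branching goes on. Cytokinin, a plant hormone, keeps meristems active, so the enzymes that activate and degrade it bear on grain number. Heterotrimeric G proteins pass on signals from the cell surface, and a variant of a G protein gamma subunit gives short, dense and erect panicles in rice.

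The table held 7169403 counts over gene IDs, so 1 count equals 0.139 CPM (the count scaled to a common total of counts on gene IDs). The library reached most of the annotation at low counts. Of all gene IDs, 88.4% had at least 1 count, the median was 9 counts (1.26 CPM), the lower quartile was 2 counts and the upper quartile was 77 counts. The 185 gene IDs named fgenesh on the sequences Un and Sy had a median of 1 count, and 42.2% of them were at 0. Counts are not divided by transcript length, because no gene length on this annotation was used here. An order of counts below is therefore not an order of transcript levels, and a longer transcript collects more counts at the same level.

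All 10 genes had at least 1 count, and they spread over the whole middle of the distribution. The median over the 10 genes was 13 counts (1.81 CPM), against 9 counts over all gene IDs. With at least 10 counts there were 5 of the 10 genes, and 49.1% of all gene IDs reached that number. Above the upper quartile of all gene IDs were 2 of the 10 genes, against 24.9% of all gene IDs. As a group the genes were thus placed close to the background of all gene IDs in the table. Transposon-like IDs, if the annotation holds any, were not set apart. The median and the ranks could therefore differ among the other genes alone. DEP1, LOG, OsSPL14, MOC1 and OsCKX2 made up the upper 5, between 19 and 304 counts. TAW1, RFL, LAX1, FZP and APO1 made up the lower 5, between 2 and 7 counts. A count of at most 7 was found for 46.4% of all gene IDs.

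**Figure D1:**
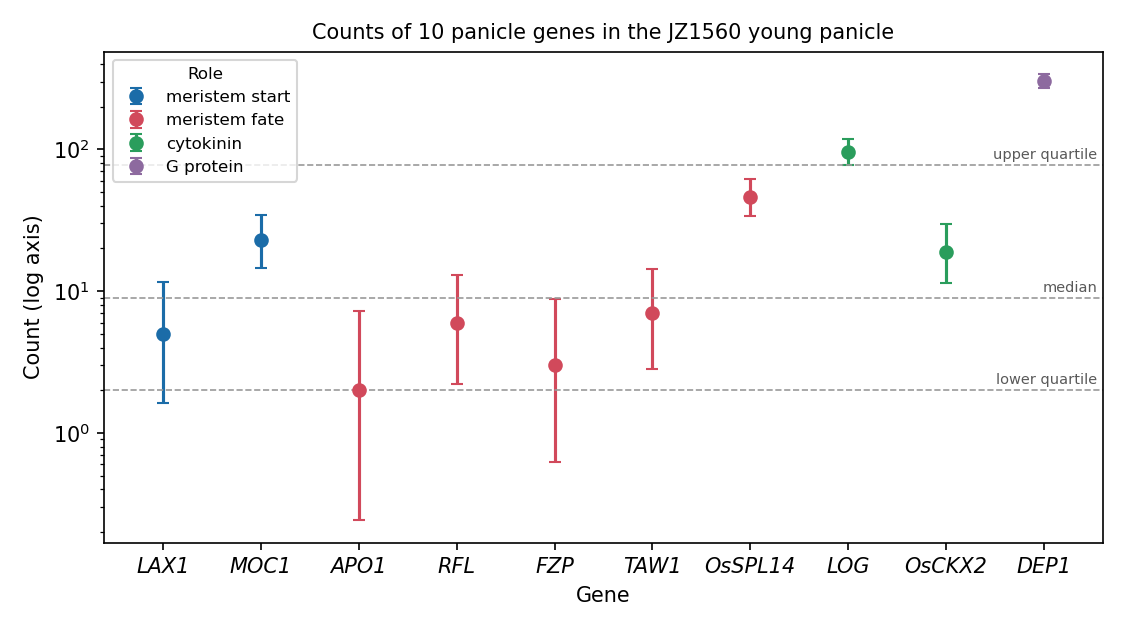
Counts of the 10 genes in the JZ1560 young panicle library, on a log axis, with exact Poisson 95% intervals as bars and colours for the role of each gene. Dashed lines are the quartiles of all gene IDs (2, 9 and 77 counts), and only LOG and DEP1 lie above the upper line.

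The genes that start axillary meristems differed in their counts. LAX1 (LOC_Os01g61480), a basic helix-loop-helix transcription factor needed to form axillary meristems, had 5 counts (interval 1.62 to 11.7), or 0.697 CPM. Its rank was 34533 of 55986 gene IDs, where rank 1 is the highest count and tied IDs share their mean rank. MOC1 (LOC_Os06g40780), a GRAS family regulator needed to form tiller buds and panicle branches, had 23 counts (interval 14.6 to 34.5), or 3.21 CPM, at rank 20403.5. The interval of LAX1 held the median of all gene IDs, 9 counts, that of MOC1 lay above it, and the intervals of both genes did not meet. The count of MOC1 was 4.60 times that of LAX1, with an exact 95% interval of the ratio from 1.71 to 15.5.

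Among the 5 regulators of meristem fate, OsSPL14 stood above the other genes, which had low counts. APO1 (LOC_Os06g45460), an F-box protein that keeps branch meristems from turning early into spikelets, had 2 counts (interval 0.242 to 7.22), or 0.279 CPM, at rank 43360.5. That was the lowest of the 10 genes. RFL (LOC_Os04g51000), the rice counterpart of the Arabidopsis gene LEAFY and a partner of APO1 in keeping branching going, had 6 counts (interval 2.20 to 13.1), or 0.837 CPM, at rank 32519.5. FZP (LOC_Os07g47330), an ERF transcription factor that ends branching and sets spikelet identity, had 3 counts (interval 0.619 to 8.77), or 0.418 CPM, at rank 39846. TAW1 (LOC_Os10g33780), an ALOG family protein that holds back the turn to spikelets, had 7 counts (interval 2.81 to 14.4), or 0.976 CPM, at rank 30791.5. APO1, RFL and TAW1, which promote branching, and FZP, which ends it, all had fewer counts than the median gene ID. OsSPL14, which also favours branching, had more. The intervals of APO1, RFL, TAW1 and FZP met one another. The intervals of APO1 and FZP lay below the median of 9 counts, and those of RFL and TAW1 held it. APO1 and FZP did not exceed the upper limit set here for a count of 0, 3 counts or 0.418 CPM. By the count itself the other 8 of the 10 genes did, as did 68.3% of all gene IDs. The intervals of LAX1, RFL and TAW1 began below 3 counts, however. Since most of the annotation had some counts, 5 to 7 counts do not show expression of a gene, and whether such counts are background of the library was not tested. OsSPL14 (LOC_Os08g39890), a squamosa promoter binding factor that favours panicle branching and is held down by a microRNA, had 46 counts (interval 33.7 to 61.4). Its level was 6.42 CPM at rank 16611.5, and 70.2% of all gene IDs had a lower count. The count of OsSPL14 was 6.57 times that of TAW1 (exact 95% interval 2.95 to 17.3), the next of the meristem fate genes.

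Of the 2 cytokinin genes of the list, LOG, for an activating enzyme, had more counts than OsCKX2, for a degrading enzyme. LOG (LOC_Os01g40630) turns inactive cytokinin nucleotides into the active free bases at the tip of the shoot meristem. It had 96 counts (interval 77.8 to 117), or 13.4 CPM, at rank 12752.5, and 77.2% of all gene IDs had a lower count. OsCKX2 (LOC_Os01g10110) is a cytokinin oxidase, and rice plants with less of it carry more grains. It had 19 counts (interval 11.4 to 29.7), or 2.65 CPM, at rank 21669, and 61.0% of all gene IDs had a lower count. LOG exceeded OsCKX2 by 5.05 times in counts (exact 95% interval 3.07 to 8.76), and both were above the median gene ID. Counts are not divided by transcript length, and related genes of both families were not looked at. The ratio therefore does not compare activation of cytokinin with its degradation in the panicle.

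The G protein gene had the highest count of the list. DEP1 (LOC_Os09g26999), the atypical gamma subunit behind dense and erect panicles, had 304 counts (interval 271 to 340), or 42.4 CPM, at rank 6044. Of all gene IDs, 89.2% had a lower count. DEP1 alone held 59.5% of the 511 counts of the 10 genes, with an exact binomial 95% interval from 55.1% to 63.8%. The cytokinin pair held 22.5% (interval 19.0% to 26.4%) and the 5 meristem fate genes 12.5% (9.78% to 15.7%). The meristem start pair held 5.48% (3.67% to 7.82%). In each of these roles 1 gene gave most of the counts: LOG 96 of 115, OsSPL14 46 of 64 and MOC1 23 of 28. The shares therefore do not rank the roles. The sum of the 10 genes was 71.3 CPM (interval 65.2 to 77.7).

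**Figure D2:**
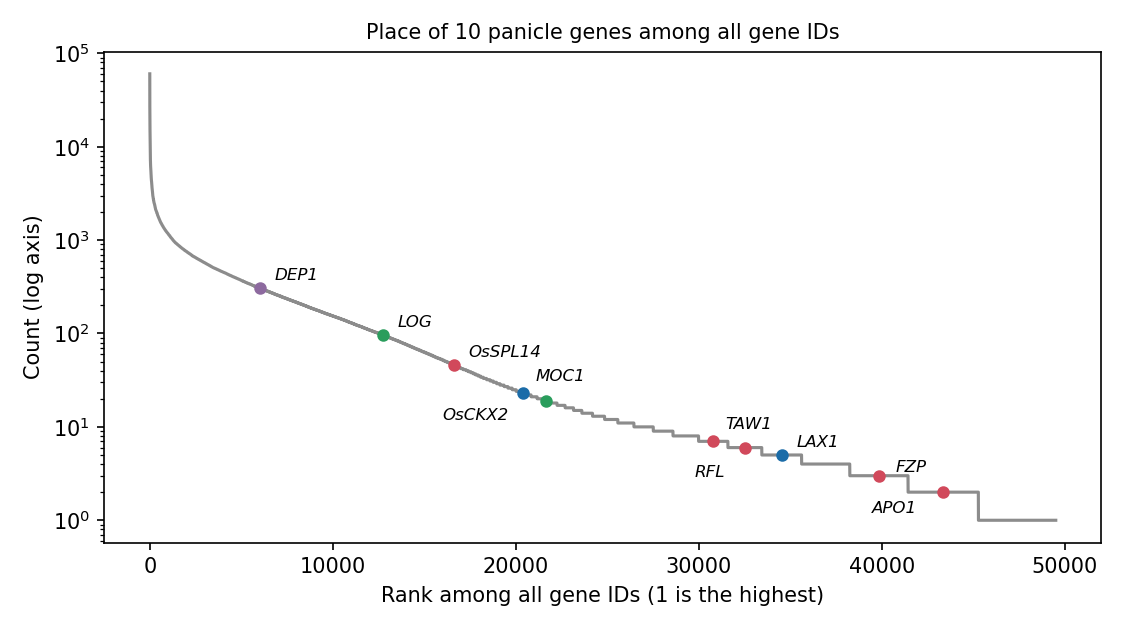
Count on a log axis against rank for all gene IDs with at least 1 count (grey line) in the JZ1560 young panicle library, with the 10 genes as points coloured by role as in the plot of counts with intervals. DEP1 lies at rank 6044, and APO1 at rank 43360.5 lies on the long steps of low counts shared by many gene IDs.

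In descending order of counts the genes were DEP1, LOG, OsSPL14, MOC1, OsCKX2, TAW1, RFL, LAX1, FZP and APO1. Of the 9 pairs of neighbours in that order, the count intervals of DEP1 and LOG and those of LOG and OsSPL14 did not meet. DEP1 had 3.17 times the counts of LOG (exact 95% interval 2.51 to 4.03), and LOG had 2.09 times those of OsSPL14 (1.45 to 3.03). Judged by the ratio instead, OsSPL14 and MOC1 (46 against 23 counts, interval of the ratio 1.19 to 3.46) and OsCKX2 and TAW1 (2.71 times, 1.09 to 7.64) were also told apart, 4 of 9 pairs in all. MOC1 and OsCKX2 were not told apart (1.21 times, 0.631 to 2.35). Among the 5 genes with at most 7 counts, none of the 10 possible pairs had a ratio whose interval left out 1, so their order was not resolved at this depth. Ranks in that range move far with a few counts. For APO1, the counts at both ends of its interval correspond to ranks 29990 and 49515, whereas for DEP1 they correspond to ranks 5432 and 6706. Many gene IDs also shared the same low count, with 3843 others at the 2 counts of APO1 and 16 others at the count of DEP1. In whole panicles, fewer cells that express a gene and less RNA per cell cannot be told apart.

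Rice gene IDs are numbered along each chromosome, so each gene was set beside the 5 nearest IDs on each side. By their IDs, LAX1, LOG and OsCKX2 are on chromosome 1, and MOC1 and APO1 on chromosome 6. RFL is on chromosome 4, FZP on 7, OsSPL14 on 8, DEP1 on 9 and TAW1 on 10. A gene with a low count has higher neighbours almost anywhere, and a gene with a high count has lower ones. The share of all gene IDs with a higher count is therefore given beside each. FZP, at 3 counts, was below all 10 of its nearest IDs, against 68.3% of all gene IDs. These 10 IDs ranged from 5 to 2257 counts with a median of 129.5. APO1, at 2 counts, was below 7 of its 10 nearest IDs, against 74.0% of all gene IDs. The median of the 10 was 80 counts and the highest value 1091, and 4 of them had at most 7 counts. For RFL 8 of 10 were higher (median 51.5 counts), against 56.4% of all gene IDs. For LAX1 8 of 10 were higher (median 18), against 59.7%, and for TAW1 6 of 10 (median 58.5, highest 2436), against 53.6%. With 10 nearest IDs a gene, these shares are too coarse to set the low genes apart from the table. MOC1 and OsCKX2 were lower than 5 of 10 each (medians 44.5 and 26.5 counts), against 36.2% and 38.4% of all gene IDs. LOG had 96 counts against a median of 88.5, and 5 of 10 were higher, against 22.7% of all gene IDs. DEP1 had 304 counts against a median of 60. For it 3 of 10 were higher, among them the ID after it with 438, against 10.8% of all gene IDs. OsSPL14 had the quietest surroundings, with a median of 12.5 counts and a highest value of 115. For OsSPL14 2 of 10 were higher, against 29.6% of all gene IDs. These shares are as coarse as those of the low genes. In all, 3 of the 10 genes exceeded the median of their 10 nearest IDs, and 48.0% of the gene IDs of the table did so.

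**Figure D3:**
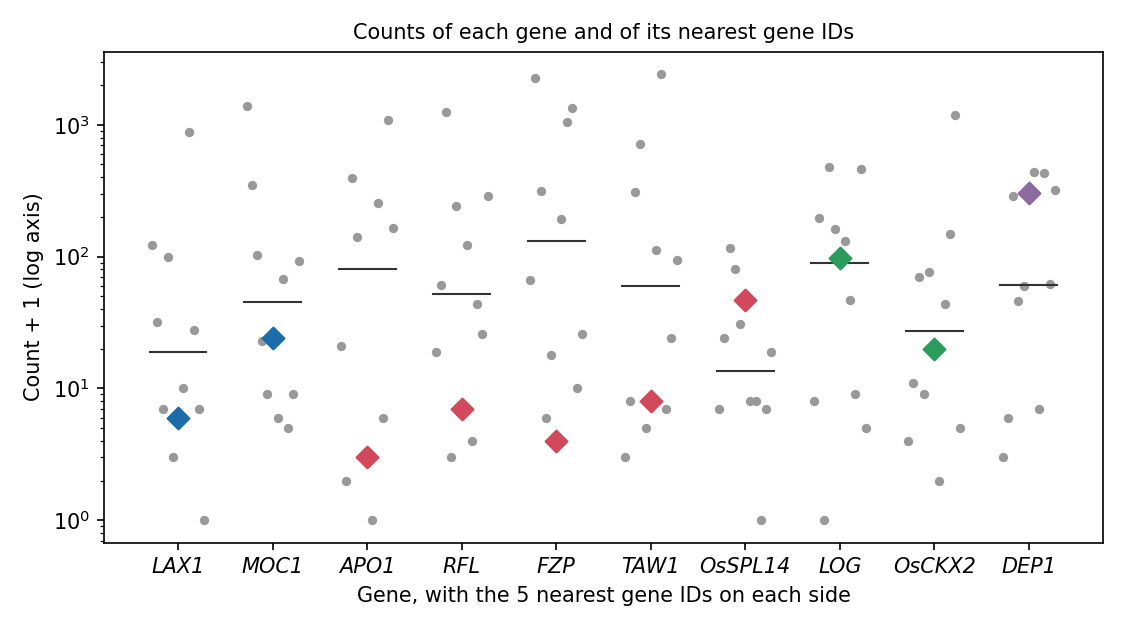
Count + 1 on a log axis for each of the 10 genes (diamonds, coloured by role as in the plot of counts with intervals) and for its 5 nearest gene IDs on each side (grey points, left to right in ID order), with their median as a bar. OsSPL14, LOG and DEP1 lie above their bars, and FZP lies below all of its points.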

How the data were processed

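RNA of JZ1560 young panicles was sequenced as 101 bp paired reads, per the labels' protocols. The authors deposited a table of raw counts, 1 whole number for each gene ID, which ends in the summary lines that HTSeq writes. HTSeq, TopHat2, BWA and FastQC appear in the submitters' processing notes, with no version and no role. Genome build, annotation and strand setting were not given in the sources used here, so reads of overlapping or antisense genes may be counted together or left out. The count column carries no sample name and was taken as the sample titled as RNA of this cultivar, the 1 RNA sample of the series.

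The members and their names were chosen with earlier results of these data known, and all 10 are named. The files do not pair IDs with names. Of the 39387 genes of the RefSeq table (assembly ASM3414082v1), 0 carried an ID of the count table and 6 carried a member's name (LAX1, RFL, FZP, OsSPL14, LOG and OsCKX2). Related gene families, markers of the tissue and gene lengths were therefore not used here, so the tissue label was not checked. Peak lists were not used, because no gene position on their coordinates was at hand.

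The 5 summary entries were left out of totals: 26.1% of all counts lay on no feature and 2.97% were ambiguous. CPM, ranks, exact Poisson intervals and exact (Clopper-Pearson) ratio intervals were computed with Python 3.11.15, numpy 2.4.6, pandas 2.3.3 and scipy 1.17.1. The intervals were tested on counts simulated as Poisson draws. That checks the calculation, not whether real reads vary in this way. The limit for a count of 0 was 3 counts. Reads without molecular identifiers are not independent molecules, so the intervals may be too narrow even for counting error. Pairs told apart by a ratio interval that ends close to 1 rest on taking reads as independent.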

Additional observations from a re-analysis of the deposited data

How the results depend on the processing

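With unassigned and ambiguous reads in the total, the sum of the 10 genes was 50.6 CPM in place of 71.3. All 10 CPM values fall by the same factor, which moved DEP1, LOG and OsSPL14 beyond their counting intervals and left the other 7 genes inside theirs. DEP1, LOG and OsSPL14 have the highest counts, and so the narrowest intervals for their level. The split therefore follows the counts and does not show that the other 7 genes depend less on the total. Without DEP1, an alternative chosen after seeing the data, the sum was 28.9 CPM. The median share of gene IDs with a lower count was 52.3% over the 10 genes, 46.0% among IDs with at least 1 count and 52.2% among IDs of the form LOC_Os, the last chosen after seeing the data. It was 39.4% for the 5 genes with at least 10 counts among IDs with at least 10 counts, where fewer IDs are ranked. Pairs of neighbours told apart numbered 2 by count intervals and 4 by ratio intervals, the second also chosen after seeing the data. Values per coding length and all alternatives on peaks were not run, because lengths and gene positions were not used here. No paired analysis was possible because a single RNA library gave the values. The depth of that library limits the order of the 5 genes with at most 7 counts.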
